A study of Mus musculus with 6 samples.

Results

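A list of 9 mouse genes was followed in natural regulatory T (nTreg) cells, a T cell type that holds immune responses in check. They are Myo1e, Nav2, Igfbp7, Angptl2, Fam167a, Susd2, Slc14a1, Tbc1d30 and Acsl6, which the files write in capitals (MYO1E, NAV2, IGFBP7, ANGPTL2, FAM167A, SUSD2, SLC14A1, TBC1D30 and ACSL6). They were chosen by their large differences between Srsf1 knockout (KO) and wild-type (WT) cells in library-scaled read counts (CPM), and most are best known from tissues outside the immune system. The list gives no cutoff. All 9 of 24982 gene symbols in the count table were found, and all 9 passed the filter on low counts. Fam167a and Susd2 passed it only through their KO reads. Since that contrast chose them, their KO and WT values are a description and carry no test. The list was labelled as strongly higher in KO. The values went that way for 8 genes, while Acsl6 was lower in KO.

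The cells were sorted as CD4+CD25+CD127lo from spleens of B6.129 mice aged 8 to 10 weeks. KO animals carried floxed Srsf1 alleles with dLck.Cre (Srsf1-flox/flox dLck.Cre), a T cell knockout according to the design text, and WT animals are labelled only as WT. Both genotypes received antibodies to CD3 (2 µg/ml) and CD28 (2 µg/ml) plus recombinant interleukin-2 (10 ng/ml) for 72 h, so no resting cells were compared. Each genotype had 3 libraries, and the design text gives 3 mice per genotype. The sample titles and the sorting protocol say nTreg, but the source name calls the cells effector CD4 T cells. Foxp3, the defining factor of Treg cells, had 104 to 160 CPM in WT against 357 to 464 CPM in KO. None of the 6 Treg markers was absent, and 4 of the 6 had a fitted change above 0. Ctla4 went the other way, with a log2 fold change of -0.79 (SE 0.46). Sums of the 6, mostly Il2ra, overlapped, at 5075 to 8208 CPM in WT against 4730 to 8366 CPM in KO. A T cell list (Cd3e, Cd3g, Cd4 and Lck) summed to 1089 to 1144 CPM in WT against 1370 to 1490 CPM in KO.

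Total gene counts were 23263741 to 27562046 in WT and 10183626 to 20373649 in KO, so each KO library was shallower than each WT library. At this depth 3 counts correspond to 0.109 to 0.295 CPM before scaling. Srsf1, the targeted gene, stood at 1213, 1230 and 755 CPM in WT replicates 1, 2 and 3 against 438, 811 and 786 CPM in the 3 KO replicates in that order. WT replicate 3, as labelled, thus lay below KO replicates 2 and 3, and directions here follow the labels. KO replicate 1 stood apart, with log2 CPM correlations across genes of 0.900 to 0.927 with the other libraries and a mismatch rate of 0.52% against 0.32% to 0.43%.

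Several of these genes encode proteins that shape cells or tissues rather than immune effectors. Class I myosins are single-headed motors that tie membranes to actin, navigators act on microtubules and the edge of growing neurites, and Igfbp7 and Angptl2 are secreted proteins of vessels and connective tissue. Slc14a1 carries urea across membranes of red cells and kidney vessels, and acyl-CoA synthetases such as Acsl6 activate long-chain fatty acids before these enter lipids or are burned.

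Promoter sequences of members that were high together are shown first, for the 3 members with a single RefSeq promoter window. Each runs from 250 bases before to 50 after the gene's start, on build GRCm38.p6. The files use mm9, so only these letters, and no positions from the files, are given. Capitals mark the GC box (GGGCGG on either strand), the only searched motif found in these windows.
Myo1e (chr9:70207100-70207399, plus strand): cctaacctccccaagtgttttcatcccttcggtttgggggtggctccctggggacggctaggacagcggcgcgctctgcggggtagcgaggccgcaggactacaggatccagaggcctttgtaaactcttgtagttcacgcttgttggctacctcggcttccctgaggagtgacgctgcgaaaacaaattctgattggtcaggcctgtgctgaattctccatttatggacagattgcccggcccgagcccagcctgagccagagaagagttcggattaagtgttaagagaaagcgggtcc
Igfbp7 (chr5:77407996-77408295, minus strand): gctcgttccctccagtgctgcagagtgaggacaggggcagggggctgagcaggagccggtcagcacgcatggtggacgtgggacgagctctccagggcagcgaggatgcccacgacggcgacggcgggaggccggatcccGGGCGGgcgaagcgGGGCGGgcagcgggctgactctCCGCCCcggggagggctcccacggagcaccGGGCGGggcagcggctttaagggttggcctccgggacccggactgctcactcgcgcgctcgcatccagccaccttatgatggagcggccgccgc
Angptl2 (chr2:33215711-33216010, plus strand): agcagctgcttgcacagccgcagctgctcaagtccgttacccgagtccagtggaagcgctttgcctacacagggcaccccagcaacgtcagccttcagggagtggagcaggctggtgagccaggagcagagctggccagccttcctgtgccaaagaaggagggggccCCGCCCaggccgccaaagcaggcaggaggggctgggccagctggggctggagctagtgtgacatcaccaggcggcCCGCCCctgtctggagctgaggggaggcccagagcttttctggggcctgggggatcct

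Of the 9 genes, 5 had an entry in this RefSeq table, with 8 windows in all, since Nav2 had 2 and Acsl6 had 3. Fam167a, Susd2, Slc14a1 and Tbc1d30 had no entry. Igfbp7 held 4 GC boxes and Angptl2 held 2, while the Myo1e window held none and thus no capitals. A GC box was present in 6 of the 8 windows, against 35.7% of all 32851 windows. These 6 included all 3 windows of Acsl6, the gene that was lower in KO, and windows of the same gene are counted separately. GC content was 56.7% to 76% in the 8 windows, above the median of 52.7% over all windows. The AP-1 motif (TGANTCA, in 7.81% of all windows) was in 1 Acsl6 window, and the Runx motif (TGTGGT, 16.8%) was in another Acsl6 window. The forkhead motif (TGTTTAC, 3.65%), the STAT motif (TTCNNNGAA, 8.30%), the E-box (CACGTG, 7.15%), the Ets motif (CCGGAA, 14.9%) and the NF-kB motif (2.08%) were in 0 of the 8, on both strands. These matches describe letters in 1 window per start site and say nothing of binding.

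The 2 cytoskeletal genes were both higher in KO. Myo1e, a long-tailed class I myosin best known from kidney podocytes, was at 18.5, 14.2 and 19.1 CPM in WT replicates 1 to 3. In KO replicates 1 to 3 it was at 61.0, 69.8 and 63.4 CPM. The KO libraries lay within 1.14-fold of each other, and the lowest was 3.19-fold above the highest WT library. Its mean was 17.3 ± 2.72 in WT against 64.7 ± 4.51 CPM in KO (SD, n = 3 each), a fitted log2 fold change of +1.91 (SE 0.24). Nav2, neuron navigator 2, was at 0.768, 0.862 and 0.753 CPM in WT against 7.81, 5.35 and 4.01 CPM in KO. Its WT libraries were nearly level, while KO replicate 1 was 1.95-fold above KO replicate 3. The fitted log2 fold change of Nav2 was +2.85 (SE 0.42), on 60 reads in all WT libraries and 282 in all KO libraries.

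The 2 secreted proteins were both higher in KO, with very different spread. Igfbp7, which binds insulin-like growth factors weakly and the receptor CD93, was at 5.01, 4.39 and 3.19 CPM in WT. In KO it was at 19.5, 20.6 and 18.3 CPM, so that the KO libraries agreed within 1.12-fold. Its fitted log2 fold change was +2.21 (SE 0.31). Angptl2, an angiopoietin-like ligand of integrins, was at 9.80, 12.1 and 8.17 CPM in WT against 99.0, 81.7 and 27.4 CPM in KO. KO replicate 3 was thus 3.62-fold below KO replicate 1, though still 2.26-fold above the highest WT library. The KO mean of Angptl2 was 69.3 ± 37.4 CPM against 10.03 ± 1.98 CPM in WT (SD, n = 3 each), with a fitted log2 fold change of +2.79 (SE 0.46).

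The 2 membrane proteins were low in WT and higher in every KO library. Slc14a1, the urea transporter UT-B, was at 1.90, 2.47 and 1.36 CPM in WT against 10.7, 9.58 and 6.71 CPM in KO, with a fitted log2 fold change of +2.24 (SE 0.39). Susd2, a sushi-domain protein of the cell surface, had 1, 10 and 3 reads in WT replicates 1, 2 and 3 and 78, 37 and 19 in KO replicates 1, 2 and 3. WT replicate 2 alone held 10 of the 14 WT reads. Over summed and scaled counts Susd2 was 16.0-fold higher in KO, as a description only, with 78 of its 134 KO reads in KO replicate 1. Its fitted log2 fold change was +3.87 (SE 0.72), and +5.02 without WT replicate 2.

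Among the intracellular proteins, Tbc1d30 and Fam167a were higher in KO. Tbc1d30 is a TBC-domain protein that switches off the trafficking GTPase Rab8. It was at 6.05, 7.45 and 6.45 CPM in WT against 21.2, 17.6 and 18.1 CPM in KO. Both groups were tight, and its fitted log2 fold change of +1.51 (SE 0.28) was the smallest of the 8. Fam167a, a protein of little-known function, had 3, 3 and 1 reads in WT and 63, 19 and 13 reads in KO replicates 1, 2 and 3. It was close to the detection floor in WT and best covered in KO replicate 1. Over summed and scaled counts Fam167a was 22.7-fold higher in KO, as a description only, with 63 of its 95 KO reads in KO replicate 1. The fitted log2 fold change of Fam167a was +4.25 (SE 0.67), and +3.39 in 2 against 2 libraries, without KO replicate 1 and WT replicate 3.

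Acsl6, a long-chain acyl-CoA synthetase most abundant in brain, went the opposite way. It was at 20.0, 26.7 and 21.1 CPM in WT against 7.22, 8.60 and 4.71 CPM in KO. Every KO library lay below every WT library, and the lowest WT library was 2.33-fold above the highest KO library. The mean was 22.6 ± 3.59 in WT against 6.84 ± 1.97 CPM in KO (SD, n = 3 each), a fitted log2 fold change of -1.72 (SE 0.33). With 1 library left out the value ran from -1.91 to -1.53.

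**Figure D1:**
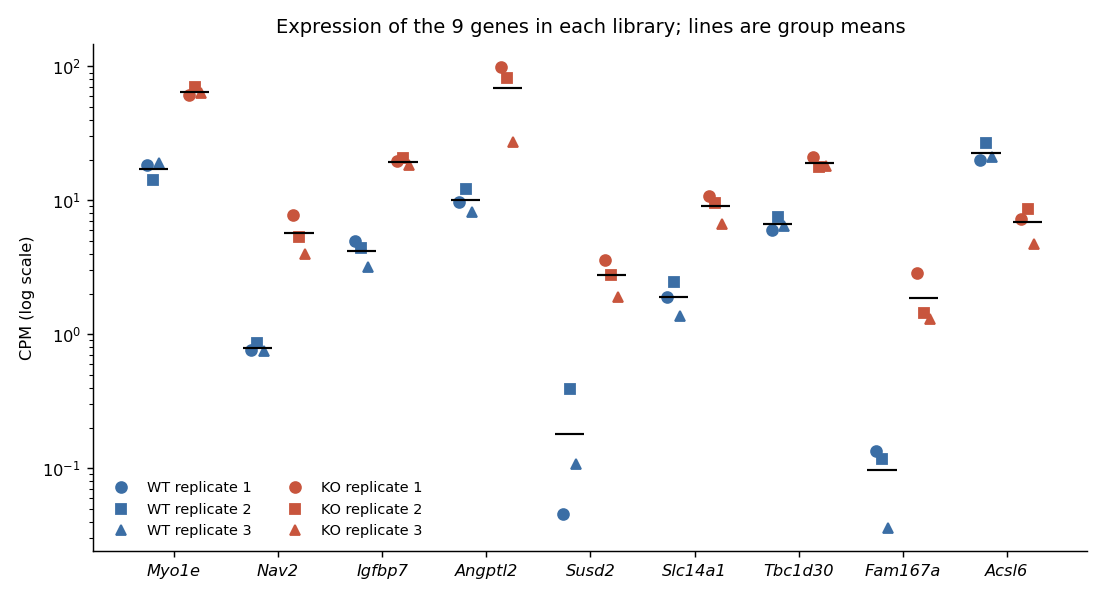
Normalised expression (CPM, log scale) of the 9 genes in each of the 6 libraries, with WT in blue, KO in red, marker shape for the replicate and a black line at each group mean. The groups do not overlap for any of the 9 genes, 8 of them being higher in KO, and Acsl6 lower.

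The groups did not overlap for any of the 9 genes, whereas 15.7% of the 11772 genes tested showed no overlap (7.48% with KO above WT and 8.18% with KO below). Fitted changes over 2-fold were found for 5.18% of tested genes upwards and 2.73% downwards. By fitted log2 fold change Fam167a and Susd2 stood at ranks 3 and 4 from the top, Nav2 at 16, Angptl2 at 19, Slc14a1 at 68, Igfbp7 at 71, Myo1e at 118 and Tbc1d30 at 228. Acsl6 stood at rank 73 from the bottom. These positions restate the choice of the genes. With adjustment over all genes, edgeR's quasi-likelihood test called 0 of the 9 (0.017% of all genes), while 9 had an unadjusted p under 0.05 (7.51% of all genes). DESeq2 called 9 of 9 (1.1% of all genes) and limma-voom 0. Nothing is read from these counts, because the same contrast chose the genes.

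Within the KO group the 8 higher genes did not all follow 1 order. KO replicate 1 was the highest KO library for 6 of the 8, the exceptions being Myo1e and Igfbp7, where KO replicate 2 was highest. Among the 880 tested genes with every KO library above every WT library, KO replicate 1 was highest for 61.9%. Nav2, Angptl2, Susd2, Slc14a1 and Fam167a ran in the order KO replicate 1, 2 and 3, which is also the order of sequencing depth; 38.0% of the 880 genes did so. The part of depth or of KO replicate 1 in these values was not tested. Without KO replicate 1 the log2 fold changes of the 8 ran from +1.43 for Tbc1d30 to +3.78 for Fam167a; since the groups do not overlap, leaving out a library could not turn their sign. After thinning every library to the depth of the shallowest, the 7 other than Fam167a stood between +1.45 for Tbc1d30 and +3.52 for Susd2.

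**Figure D2:**
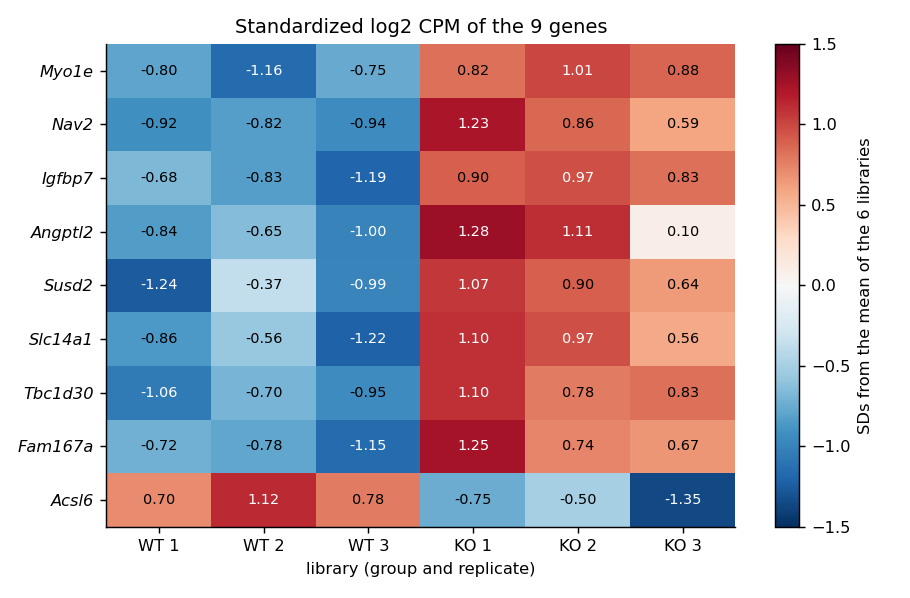
Log2 CPM of each gene in each library, standardized over the 6 libraries, as the number of SDs from that gene's mean (colour and printed value). Angptl2 in KO replicate 3 is near its overall mean at 0.10, and the Acsl6 row has the colours of the other 8 rows exchanged.

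Levels can be compared between genes only per length, on the deposited FPKM scale, which divides by transcript length and library size. In WT, Acsl6 was the most abundant of the 9 at 5.74 to 8.25 FPKM, above Igfbp7, Myo1e and Angptl2, whose ranges overlapped between 1.93 and 3.83 FPKM. Tbc1d30 (0.725 to 0.969 FPKM) and Slc14a1 (0.302 to 0.541 FPKM) followed, each apart from its neighbours. Nav2, Susd2 and Fam167a were at most 0.109 FPKM in any WT library. In KO, Angptl2 had the highest mean at 16.5 ± 9.84 FPKM. However, its range of 5.91 to 25.4 FPKM included those of Igfbp7 (14.2 to 17.6 FPKM) and Myo1e (9.33 to 10.5 FPKM). Tbc1d30, Acsl6 and Slc14a1 overlapped between 1.36 and 3.12 FPKM in KO. Susd2, Nav2 and Fam167a overlapped between 0.229 and 0.933 FPKM, so these 3 remained low transcripts. The KO to WT ratio of mean FPKM was close to that of mean CPM for most genes, with 3.83 against 3.75 for Myo1e and 0.303 in both for Acsl6. Susd2 differed most, at 13.1 on FPKM against 15.2 on CPM.

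The families of these genes held 43 listed relatives, of which 28 were tested and 15 did not pass the filter on low counts. Of the 28, 17 had a fitted change above 0 (51.6% of all genes did) and 11 below, and their median was +0.31 on the log2 scale, against +0.02 over all tested genes. edgeR's quasi-likelihood test called 0 of the 28, where it called 0.017% of all genes, so that count says little of the relatives. An unadjusted p under 0.05 was reached by 4 of the 28, against 7.51% of all genes. DESeq2 called 1, against 1.1% of all genes, and limma-voom 0. The groups did not overlap for 8 of the 28, or 28.6%, against 15.7% of all genes.

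The relative with the largest value above 0 was Nav1, another neuron navigator. It was at 1.76, 1.80 and 2.44 CPM in WT against 5.85, 4.52 and 7.72 CPM in KO, with no overlap. Its log2 fold change of +1.58 (SE 0.38) had an adjusted p of 0.371 in edgeR and 0.0106 in DESeq2, and ran from +1.35 to +1.75 with 1 library left out. KO replicate 3, the lowest KO library for Nav2, was the highest for Nav1. Nav3 was listed at 0 in all libraries.

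Among class I myosins, Myo1f, the other long-tailed member, stood at a log2 fold change of +0.48 (SE 0.42), and Myo1g, a class I myosin of blood cells, at +0.38 (SE 0.34), or -0.09 without KO replicate 1, both with overlapping groups. Per length, Myo1g was far above Myo1e in both groups, at 44.5 FPKM in WT and 61.6 FPKM in KO. Myo1f had a mean of 2.32 FPKM in WT and 3.31 FPKM in KO, against 2.63 and 10.1 FPKM for Myo1e.

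Among the secreted families, Igfbp4 was the only other IGF binding protein past the filter. It was at 14.6 ± 7.78 CPM in WT against 8.94 ± 3.19 CPM in KO (log2 fold change -0.70 with SE 0.45, adjusted p = 0.732 in edgeR), and at a log2 fold change of -0.19 without WT replicate 3. Per length, Igfbp4 was above Igfbp7 in WT at 5.70 against 3.28 FPKM and below it in KO at 3.65 against 15.9 FPKM. Angptl6, with the smallest p among angiopoietin-like relatives, stood at -1.11 (SE 0.84, edgeR adjusted p = 0.754), and ran from -2.30 without KO replicate 1 to -0.30 without WT replicate 3. Angptl4, a lipoprotein lipase inhibitor, stood at +0.39 (SE 0.32).

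Among the remaining families, Susd1 was at 6.07 ± 3.33 CPM in WT against 2.67 ± 0.722 CPM in KO (log2 fold change -1.20 with SE 0.47, adjusted p = 0.651 in edgeR), and at -0.66 without WT replicate 3. Of the TBC-domain proteins, Tbc1d10c, a regulator of lymphocyte signalling, stood at +0.76 (SE 0.40, edgeR adjusted p = 0.689), and at +0.17 without KO replicate 1. The 4 other long-chain acyl-CoA synthetases stood between -0.92 for Acsl3 (SE 0.52, edgeR adjusted p = 0.713) and +0.07 for Acsl1 (SE 0.24), all with overlapping groups, and Acsl3 ran from -1.56 without KO replicate 3 to -0.49 without KO replicate 1. Per length, Acsl5 (111 FPKM in WT) and Acsl4 (65.9 FPKM) were the abundant members, while mean Acsl6 was above Acsl1 in WT (6.85 against 4.93 FPKM) and below it in KO (2.08 against 5.37 FPKM). Fam167b had at most 3 reads in any library, and Slc14a2, the other urea transporter, was listed at 0.

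**Figure D3:**
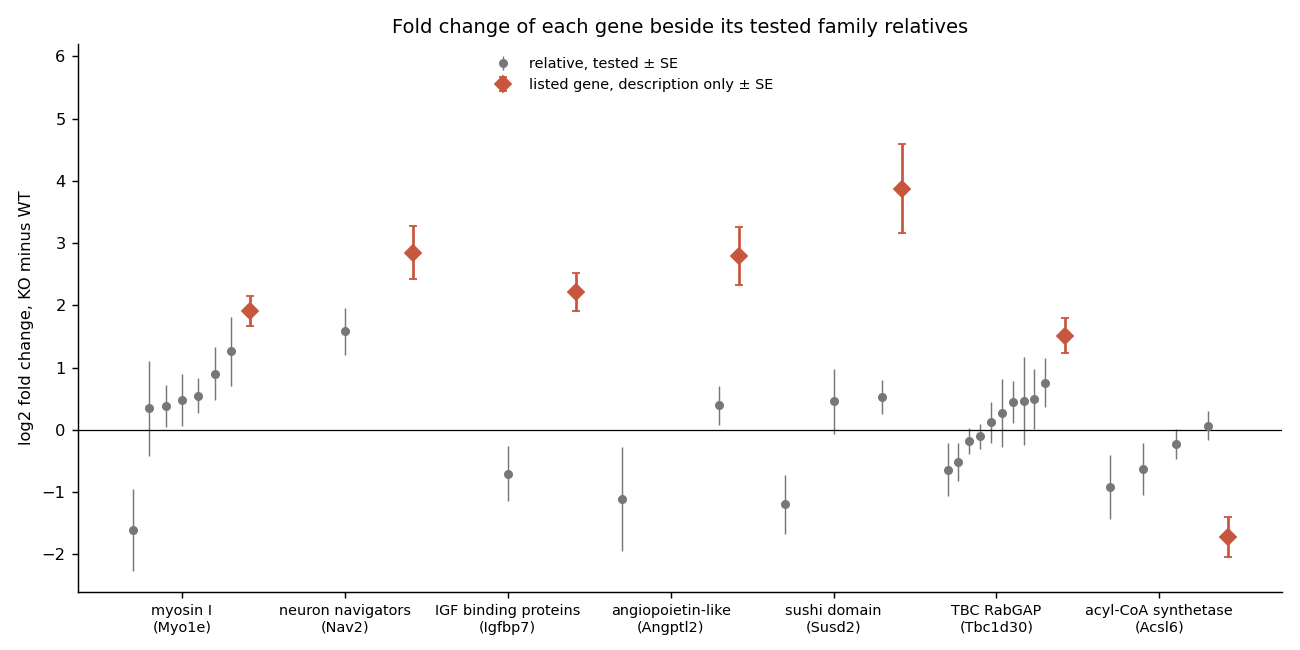
Log2 fold change in KO against WT, with SE bars, of each tested family relative (grey circles) and of the listed gene of the same family (red diamonds, description only). Each listed gene lies farther from 0 than every tested relative of its family, and Nav1 at +1.58 is the highest relative. The listed genes were chosen for large differences and the relatives were not, so this comparison carries no test. Fam167a and Slc14a1 had no tested relative and are not drawn.

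Of 21 genes that flank or overlap the 9 on the chromosome, by RefSeq order, 12 were tested, 7 of them above 0, and their median was +0.05 on the log2 scale. edgeR called 0 of the 12 (0.017% of all genes), and DESeq2 (1.1% of all genes) and limma-voom called 0. An unadjusted p under 0.05 was reached by 2 of the 12, against 7.51% of all genes. Fam81a, beside Myo1e, was at 1.04, 1.84 and 0.645 CPM in WT against 4.07, 3.92 and 2.61 CPM in KO (log2 fold change +1.59 with SE 0.50, adjusted p = 0.529 in edgeR). Blk, a Src-family kinase gene of B cells beside Fam167a, was named after its values were seen. It was at 0.135, 0.274 and 0.108 CPM in WT against 1.92, 0.528 and 0.501 CPM in KO, a log2 fold change of +2.53 (SE 0.74, edgeR adjusted p = 0.485). KO replicate 1 set much of that size, since Blk stood at +1.54 without it. Blk was near the detection floor in WT and passed the filter on low counts only through KO. It was 1 of the 2 neighbours counted above, so that count rests partly on the filter. Il3, the cytokine gene beside Acsl6, stood at -0.05 (SE 0.75), with 7.21 to 51.2 CPM in WT against 9.42 to 56.3 CPM in KO.

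By RefSeq, Angptl2 overlaps Ralgps1 and Igfbp7 overlaps Polr2b. The strand setting of the counting is not given here, so reads shared by such pairs cannot be assigned. Ralgps1 was at 4.55 ± 2.02 CPM in WT against 3.26 ± 0.546 CPM in KO (log2 fold change -0.49, SE 0.42, or -0.07 without WT replicate 3). Polr2b, a subunit of RNA polymerase II, was at 314 ± 46.9 and 285 ± 77.5 CPM (log2 fold change -0.14, SE 0.28). Both had overlapping groups and edgeR adjusted p of 0.770 and 0.886.

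Of 22 listed receptors, partners and pathway genes of the 9, 19 were tested, 10 of them above 0, with a median of +0.02 on the log2 scale. edgeR called 0 of the 19 (0.017% of all genes), and DESeq2 (1.1% of all genes) and limma-voom called 0. An unadjusted p under 0.05 was reached by 3 of the 19, against 7.51% of all genes. Aqp3, a channel for water and glycerol, was at 3.51 ± 0.615 CPM in WT against 10.1 ± 7.59 CPM in KO (log2 fold change +1.53 with SE 0.52, adjusted p = 0.577 in edgeR), and stood at +0.70 without KO replicate 1. Cpt1a, which carries activated fatty acids into mitochondria, was at 48.3 ± 6.14 and 71.4 ± 4.70 CPM (log2 fold change +0.56 with SE 0.21, adjusted p = 0.639 in edgeR). The insulin receptor gene Insr stood at -0.73 (SE 0.28, edgeR adjusted p = 0.639), and the fatty acid desaturase gene Fads2 at -1.40 (SE 0.65, edgeR adjusted p = 0.663), with overlapping groups for Fads2 only. Fads2 stood at -2.66 without KO replicate 3. Of the Rab8 genes, Rab8a stood at +0.15 (SE 0.23) and Rab8b at +0.02 (SE 0.35), with overlapping groups.

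Markers of several non-immune cell types were also read, with no kidney list among them. Among endothelial markers other than Pecam1, which T cells also carry, no gene had more than 7 reads in any library. Neural markers had at most 4 reads and erythroid markers at most 31. Fibroblast and reticular stroma markers summed to 0.903 to 4.78 CPM in WT against 0.980 to 1.55 CPM in KO, with Col1a1 at most at 80 reads. Cdh5, Emcn, Pdgfra and Dcn were listed at 0 throughout, but so was Rpl26, a gene of the ribosome that all cells need. Epithelial markers, mostly Epcam with up to 455 reads, summed to 6.82 to 19.5 CPM in WT against 12.6 to 16.4 CPM in KO.

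Summed levels of CD8 T cell, macrophage and NK cell markers did not overlap between the groups. The 2 CD8 T cell markers, Cd8a and Cd8b1, summed to 193 to 269 CPM in WT against 38.9 to 60.4 CPM in KO. Cd8b1 was 1 of the 2 genes that edgeR called (adjusted p = 0.0166). The 9 macrophage and monocyte markers summed to 1.99 to 5.95 CPM in WT against 10.3 to 15.7 CPM in KO, carried by Cd68 and Fcer1g, while the other 7 had at most 10 reads in any library and Csf1r and Lyz2 were listed at 0. The 3 NK cell markers summed to 13.1 to 19.9 CPM in WT against 20.7 to 39.2 CPM in KO. Most of that sum was Eomes, whose own groups overlapped, at 12.3 to 19.7 CPM in WT against 19.6 to 37.0 CPM in KO. The groups did not overlap for Klrb1c, at 0.181 to 0.789 CPM in WT against 0.868 to 1.90 CPM in KO. Nor did they for Ncr1, at 0.0359 to 0.135 CPM in WT against 0.301 to 2.04 CPM in KO. Both were low, with at most 25 and 27 reads in any library. Sums of the 5 B cell markers overlapped, at 2.55 to 4.41 CPM in WT against 0.802 to 4.80 CPM in KO, as did the 5 dendritic cell markers at 1.76 to 2.47 and 2.10 to 4.29 CPM. Their part in the values of the 9 genes was not tested, and in these bulk samples fewer cells of a type and less RNA per cell cannot be told apart.

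Genes with the most similar pattern were found by Pearson correlation with the mean standardized log2 CPM of the 9 genes over the 6 libraries, which share the split by genotype. Acsl6 was part of this mean but ran against it (r = -0.863). Genes picked in this way from all tested genes follow the split by choice, so their values are a description and carry no test. They included the ubiquitin ligase gene Mylip (r = 0.995), the calcium channel subunit gene Cacna2d4 (r = 0.993), Ldlrad4 (r = 0.989), Itm2b (r = 0.988) and the kinesin gene Kif13a (r = 0.988). Ldlrad4, an inhibitor of TGF-beta signalling, was at 5.56 ± 0.449 CPM in WT against 17.97 ± 2.05 CPM in KO (SD, n = 3 each). The log2 fold changes of these 5 genes ran from +0.46 for Itm2b to +1.81 for Cacna2d4, and none passed in edgeR (adjusted p = 0.231 for Ldlrad4 to 0.663 for Itm2b).

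Across 20 other settings, 160 of 174 recomputed member values moved by less than 1 SD of the spread between replicates. The settings reuse the same libraries and the contrast that chose the genes. That SD was wide for some genes, at 0.73 for Angptl2 and 0.71 for Susd2, so the count says little of stability. On the log2(FPKM + 1) scale without a filter Nav2, Fam167a and Susd2 shrank to +0.39, +0.41 and +0.68, since all 3 lie below 1 FPKM and the added 1 outweighs them.

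**Figure D4:**
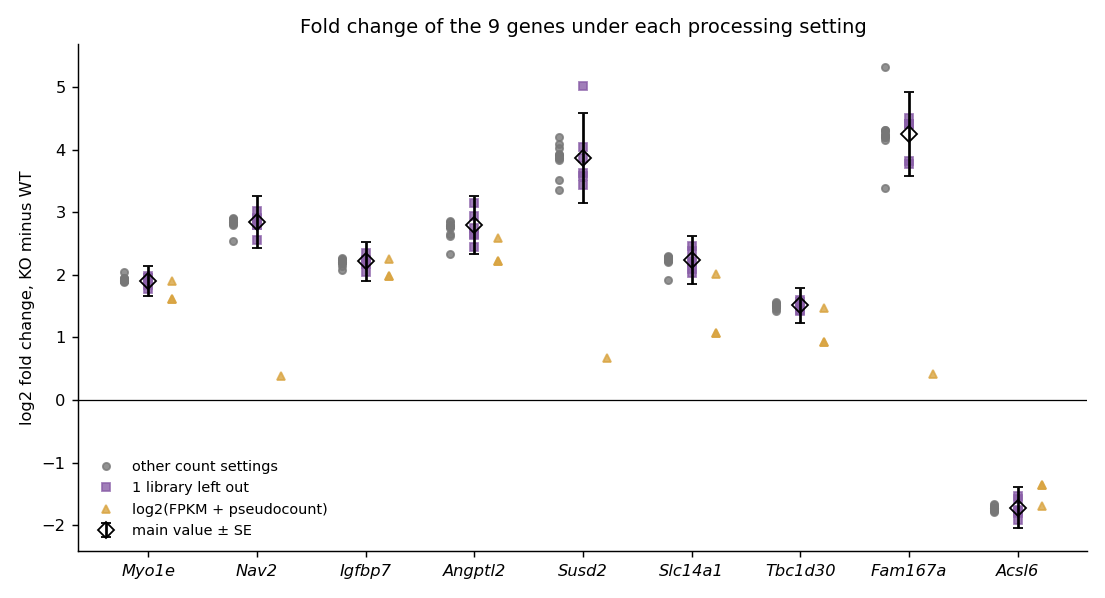
Log2 fold change in KO against WT of the 9 genes, with the main value and its SE (open diamonds), other count settings (grey), 1 library left out (purple) and log2(FPKM + pseudocount) settings (yellow). Every value of a gene lies on 1 side of 0, and the low-level genes Nav2, Susd2 and Fam167a are the ones most compressed on the log2(FPKM + 1) scale.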

How the data were processed

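The 6 stranded mRNA libraries were sequenced as 75-bp single ends. According to the design text the VIPER pipeline was used, the submitters' processing notes list mm9, and per the file headers alignment was by STAR 2.4.2a. Counting tool, strand setting and annotation: not given in the sources used here. The authors deposited whole-number counts for 24982 symbols and FPKM values for 24917 symbols. In 26 entries (0.271% of counts) a date replaces the symbol; these stayed in the library sizes.

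KO and WT counts were compared by edgeR 4.0.16 under R 4.3.3 (TMM, filterByExpr with a minimum count of 10, quasi-likelihood test, Benjamini-Hochberg adjustment over 11772 genes, threshold 0.05), without a block. CPM are TMM-scaled, and SE comes from the F statistic. P-values treat libraries as separate animals. Alternatives, given in the closing section, used DESeq2 1.42.0, limma 3.58.1, other scalings and filters, thinning, a replicate block, sex read from Xist and Y-linked genes (replicate 2 male in both groups), and libraries left out. Same-numbered libraries did not all deviate together (correlations of -0.361, 0.145 and 0.138), which cannot settle whether animals were paired by number. The fit was also run on counts simulated from its own dispersion estimates, which cannot show that it suits these libraries.

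The members, lists and settings were chosen with earlier results of these data known. Named were all members, the relative of each family with the smallest p and those past the threshold, neighbours over 2-fold at 1 CPM or more or overlapping a member, the 4 partners with the smallest p, the 6 genes most like the members, Srsf1 and Foxp3. Others, such as Myo1f, Myo1g, Angptl4, Acsl1, Rab8a and Il3, were named after their values were seen. Of the genes this rule names, 2 are not reported here.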

Additional observations from a re-analysis of the deposited data

How the results depend on the processing

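edgeR called 2 genes in all, Dapl1 and Cd8b1, but 6 without a filter on low counts (Angptl2 and Myo1e among them), 129 with DESeq2, 1 with limma-voom, 80 in 2 against 2 libraries without KO replicate 1 and WT replicate 3, 0 with animal sex as covariate (695 at an unadjusted p under 0.05) and 0 with limma on log2(FPKM + 1) without a filter (1040). With 1 library left out the count ran from 0 to 3, being 3 without KO replicate 1 (Myo1e added) and 0 without any other. The replicate block gave 1 call, Ccl1, and 0 members. The sample labels do not say whether the replicate numbers pair the animals. For family relatives DESeq2 gave 1 call, Nav1, against 0. The other settings left the counts of relatives, neighbours and partners at 0, which says nothing of stability. The median log2 fold change of the members was +2.24 and became +1.34 and +1.96 with limma on filtered log2(FPKM + 1) and log2(FPKM + 0.1), where 6 members remained, and +0.93 on log2(FPKM + 1) without a filter. The added pseudocount lowers fold changes of low genes by construction. Thinning left Fam167a with 0, 1 and 0 WT reads, so its value of +5.32 there is no estimate of size. Depth limits Fam167a and Susd2 most, with 7 and 14 reads in WT in all.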

Other observations

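Cd93, an endothelial and myeloid receptor that binds Igfbp7, was at 1.22 and 1.45 CPM in WT replicates 1 and 2, at 43.4 CPM in the library labelled WT replicate 3, against 2.15, 4.52 and 4.71 CPM in the 3 KO libraries. Its log2 fold change was -2.03 (SE 1.22, edgeR adjusted p = 0.724) and became +1.49 without WT replicate 3, so that 1 library set the sign. It was named after its values were seen.

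Rpl26 was listed at 0 reads in all 6 libraries of the count table, while the FPKM table gave 7.94, 10.6 and 9.71 FPKM in WT replicates 1, 2 and 3 and 215, 6.32 and 0.000704 FPKM in KO replicates 1, 2 and 3. The 2 deposited tables thus differ for this gene, and a 0 in the count table need not mean that a gene was silent. All 9 listed genes had reads in every library of both tables.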
